A study of Mus musculus with 24 samples.

Results

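The genes described here encode 45 proteins of the muscle sarcomere other than myosins, troponins and tropomyosins. They were picked by name from the 48544 genes in the deposited tables, and every one was found once in each table. By role they comprise 9 genes of the thin filament, 4 of titin and the thick filament, 4 of the M-band, 21 of the Z-disc and 7 of sarcomere assembly and turnover. Messenger RNA was measured in 24 libraries of wild type C2C12, an established line of mouse myoblasts that form multinucleated myotubes in low serum. The 6 groups of 4 libraries were day 7 myotubes, day 0 myoblasts, myotubes given 100 µM dexamethasone for 24 h (day 8) or 72 h (day 10), and myotubes kept with vehicle for the same 24 h or 72 h. Dexamethasone is a synthetic glucocorticoid that is used to induce atrophy in cultured myotubes. The serum (fetal bovine) was 10% for day 0 myoblasts and 2% for every myotube group. The vehicle medium contained 1% ethanol, and the labels name ethanol for that medium only. All groups came from the same clonal line, and whether its replicates are separate cultures is not in the labels, so p-values measure only how far these libraries spread, which may be technical.

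The sarcomere is the repeating contractile unit of striated muscle. Actin thin filaments are anchored at the Z-disc by alpha-actinin and a shell of adaptor proteins, thick filaments are crosslinked at the M-band by myomesins, and titin runs from one to the other. When myoblasts fuse, these genes are switched on with the contractile genes, and in muscle wasting the assembled filaments are taken apart by proteases and ubiquitin ligases.

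Levels are in TPM, an abundance that is scaled for transcript length and totals 1000000 per library. A fold is the mean TPM of one group over that of another and is printed if both means reach 0.5 TPM. Neither table keeps the read depth, so no counting interval can be given. Between 12428 and 13030 genes per library reached 1 TPM. A gene was called higher or lower when its limma adjusted p over 16257 genes was below 0.05. Log2 differences and standard errors come from the authors' log2 table, where differences were smaller than on the TPM scale: the median difference of the members between day 7 and day 0 was 2.22 there and 3.90 as log2(TPM + 0.1). The filter on low values left 44 of the 45 genes to test. The exception was Myoz3, the third calsarcin, which was at or below 0.306 TPM in every library.

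Day 7 myotubes and day 0 myoblasts carried the markers of their labels. All 8 myotube markers tested were higher in day 7 myotubes than in day 0 myoblasts, and all 10 proliferation markers were lower. The myotube markers summed to between 2639 and 3057 TPM at day 7, against 175 and 316 TPM at the ends of the day 0 range. Mymk and Mymx, which encode the fusion proteins, were not found under those symbols. Each replicate 1 library of 72 h was set against that of the other treatment. Genes were picked with at least 20 TPM in that counterpart. Their mean in the other replicates of the library's own group had to be at most 5% of that level. The vehicle library with that number held 29 genes that are high in its dexamethasone counterpart at a median of 12.7% of that library's level, whereas the same genes stood at a median of 0.233% in the other replicates. The dexamethasone library with that number held 24 genes that are high in its vehicle counterpart at a median of 21.4%, against 1.03% in the other replicates. The low values in the other replicates follow from how the genes were picked, and no other replicate number was searched in this way. For most results on the members at 72 h the values without this pair of libraries are given beside those over all libraries. Marker results are over all libraries.

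**Figure D1:**
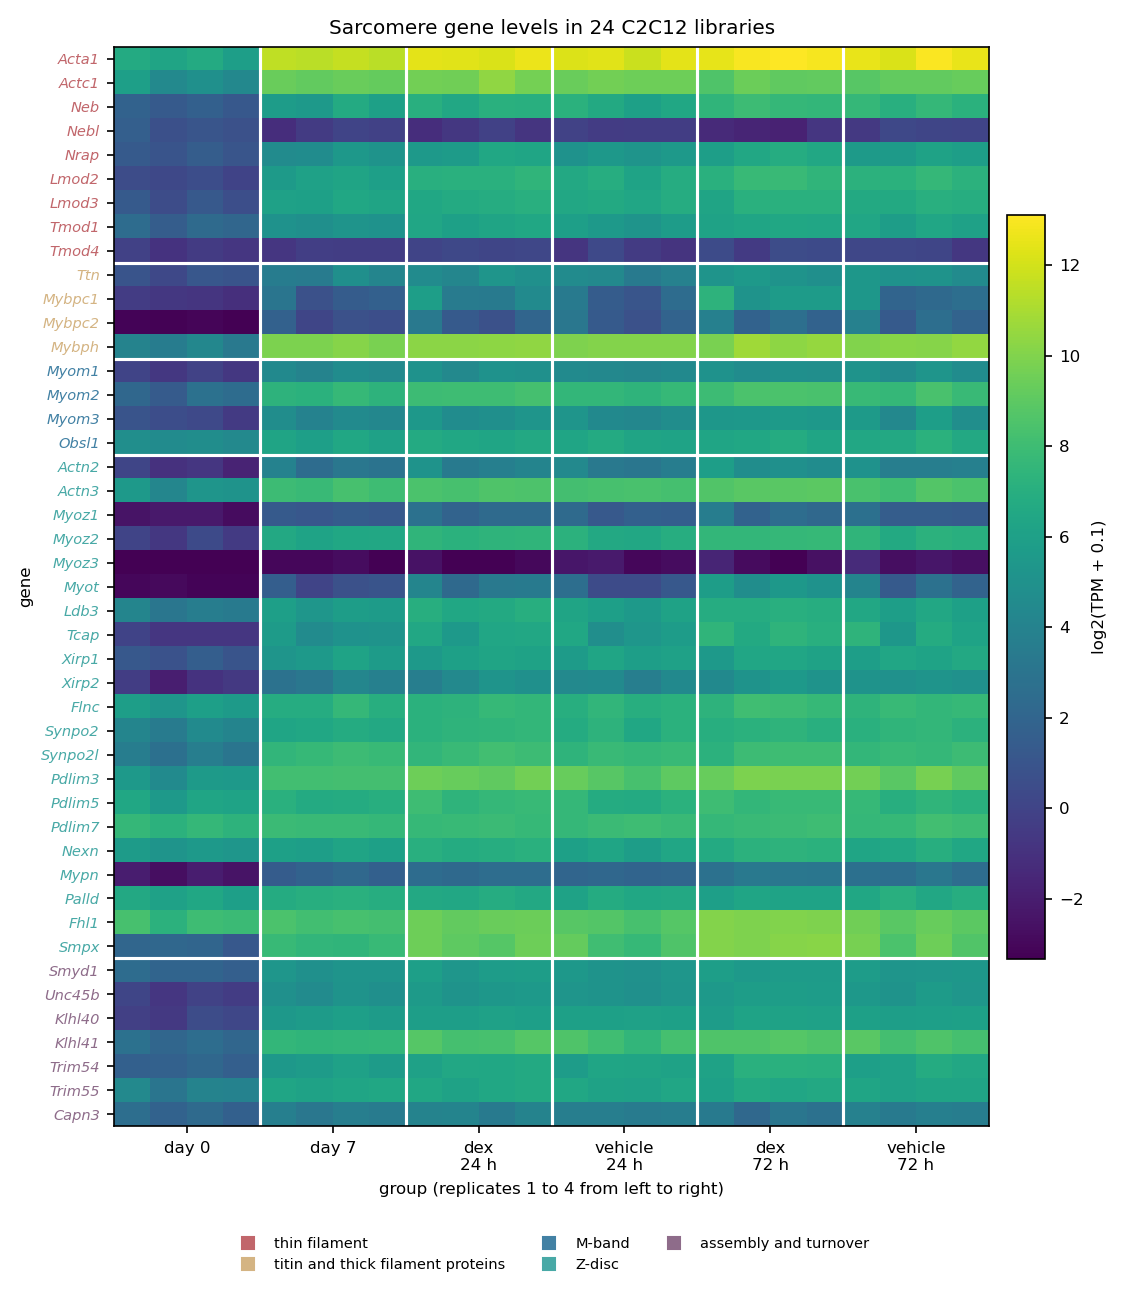
Levels of the 45 sarcomere genes as log2(TPM + 0.1) in all 24 libraries, with genes as rows grouped by role and libraries as columns grouped by condition. The day 0 columns are darkest for nearly all genes, and Nebl runs the other way.

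Differentiation raised nearly the whole set. In day 7 myotubes 42 of the 44 genes tested were higher than in day 0 myoblasts and 1 was lower, where 30.5% of all genes tested were called higher and 29.8% lower. Summed over the 45 genes, the level was 7274 to 8812 TPM in day 7 myotubes, against 738 to 1264 TPM in day 0 myoblasts. The median fold of the 39 genes with a fold was 14.5, beside a median of 0.906 over 13102 genes. Of the 39, 21 rose more than 10-fold, and the share of the 13102 genes that did so was not computed. In bulk RNA a larger share of fused cells and more of a transcript per cell cannot be told apart.

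The thin filament is built from actin, capped at its pointed end and ruled in length by nebulin. Acta1, skeletal alpha-actin, was the most abundant member after differentiation, with 3036, 2770, 3300 and 2783 TPM in day 7 myotubes, against 107, 79.0, 105 and 60.4 TPM in day 0 myoblasts. Actc1, the cardiac alpha-actin that embryonic skeletal muscle also uses, had 662, 584, 661 and 592 TPM in day 7 myotubes, against 62.3, 21.3, 30.8 and 20.5 TPM in day 0 myoblasts. Neither actin overlapped between the groups, and the rises were 33.8-fold for Acta1 (log2 difference 2.63 ± 0.12, SE, adjusted p = 5.44e-14) and 18.5-fold for Actc1 (2.58 ± 0.13, adjusted p = 2.1e-13). The longest run of bases that the annotated transcripts of the 2 actin genes share is 29 bases, and they have no stretch of 31 bases in common. Acta1 made up 82.6% ± 0.51 of the summed TPM of this pair in day 7 myotubes and 73.5% ± 7.05 in day 0 myoblasts (SD, n = 4 each), without overlap. Computed from the authors' log2 table, which is not per length, the shares were 85.9% at day 7 and 85.4% at day 0 and their ranges overlapped.

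Neb encodes nebulin, the giant ruler of the thin filament. It had 55.3, 47.2, 104 and 64.3 TPM in day 7 myotubes, against 3.44, 2.45, 3.25 and 2.24 TPM in day 0 myoblasts, a 23.8-fold rise. Nebl, whose product nebulette is a short nebulin relative known from heart, was the single member that fell. It had 0.352, 0.636, 0.952 and 0.805 TPM in day 7 myotubes, against 3.10, 1.49, 1.93 and 1.56 TPM in day 0 myoblasts (log2 difference −1.02 ± 0.20, SE, adjusted p = 0.000141). The groups did not overlap, and the share of Nebl in the summed TPM of both genes was 1.03% ± 0.32 at day 7 and 40.9% ± 4.68 at day 0 (SD, n = 4 each). The leiomodins nucleate actin filaments, and Lmod2 and Lmod3 rose 55.4-fold and 40.0-fold. Nrap, a nebulin relative found at early myofibrils, rose 14.5-fold. Of the tropomodulins, which cap the pointed end, Tmod1 rose 7.53-fold, whereas Tmod4 averaged 0.648 ± 0.096 TPM at day 7 and 0.592 ± 0.167 TPM at day 0 (SD, n = 4 each) and was not called (adjusted p = 0.501).

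Titin spans from Z-disc to M-band and acts as a spring and scaffold. Ttn had 11.7, 11.4, 28.7 and 17.7 TPM in day 7 myotubes, against 1.79, 1.06, 2.11 and 1.81 TPM in day 0 myoblasts, a 10.3-fold rise. Mybph, a relative of the myosin-binding proteins C, had 929, 918, 1127 and 892 TPM in day 7 myotubes, against 16.0, 12.1, 19.5 and 10.1 TPM in day 0 myoblasts. Its rise was 66.9-fold (log2 difference 3.13 ± 0.095, SE, adjusted p = 1.37e-16), and no library of one group reached the other. The slow isoform Mybpc1 rose 7.69-fold, a call that was lost without replicate 1 of day 7 (adjusted p = 0.0709). The fast isoform Mybpc2 averaged 1.82 ± 1.00 TPM at day 7, against 0.00839 ± 0.00622 TPM at day 0 (SD, n = 4 each), a level too low for a fold. In the M-band, the myomesins that crosslink myosin tails rose 34.3-fold (Myom2), 29.5-fold (Myom1) and 17.3-fold (Myom3). Obsl1, an obscurin relative that binds titin and myomesin, was already at 25.1 TPM in myoblasts and rose 2.95-fold.

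All 20 Z-disc genes that were tested rose, but over a wide range. Myoz2, calsarcin-1, which binds alpha-actinin and calcineurin, had 96.8, 74.1, 87.6 and 91.6 TPM in day 7 myotubes, against 0.921, 0.527, 1.22 and 0.600 TPM in day 0 myoblasts. This 107-fold rise was the largest ratio of means among the 39 members with a fold (log2 difference 3.06 ± 0.11, SE, adjusted p = 1.64e-15). Myoz1, the calsarcin of fast fibres, reached only 2.37, 2.10, 2.61 and 2.32 TPM at day 7, against 0.0859, 0.122, 0.122 and 0.0476 TPM at day 0, so that Myoz2 held 97.3% of the summed calsarcin TPM in day 7 myotubes. Tcap, telethonin, which caps the ends of titin, had 52.1, 23.8, 33.5 and 34.3 TPM in day 7 myotubes, against 0.898, 0.512, 0.518 and 0.499 TPM in day 0 myoblasts, a 59.2-fold rise without overlap. The alpha-actinins crosslink actin at the Z-disc. Actn2 had 15.6, 5.61, 8.99 and 7.60 TPM in day 7 myotubes, against 0.962, 0.403, 0.494 and 0.217 TPM in day 0 myoblasts. Actn3, the isoform of fast fibres, had 248, 225, 327 and 253 TPM at day 7, against 47.6, 18.2, 38.3 and 35.0 TPM at day 0. Actn3 was the more abundant alpha-actinin in all 24 libraries, with 96.5% of the pair's TPM at day 7 and 98.5% at day 0.

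The genes that rose least were adaptors already present in myoblasts. Pdlim7, an Enigma family adaptor, averaged 224 ± 16.3 TPM at day 7 and 176 ± 24.8 TPM at day 0 (1.28-fold), and Fhl1, a LIM protein, averaged 312 ± 29.7 and 241 ± 70.8 TPM (1.30-fold, SD, n = 4 each). The Fhl1 groups overlapped, and its call was lost without replicate 2 of day 0 (adjusted p = 0.0738). Nexn, nexilin, rose 1.51-fold, Palld, palladin, 1.57-fold, and Pdlim5, a further Enigma family member, 1.66-fold. Xirp1, a Xin repeat protein that binds actin, rose 24.5-fold, Synpo2l 21.3-fold, Pdlim3 6.86-fold, Ldb3 4.30-fold and Flnc, filamin C, 2.63-fold. Smpx, a small protein of the costamere and Z-disc region, rose 52.8-fold.

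The 7 assembly and turnover genes all rose. Klhl40, which stabilises nebulin and leiomodin 3, had 42.8, 52.9, 62.0 and 52.5 TPM in day 7 myotubes, against 0.763, 0.562, 1.32 and 1.01 TPM in day 0 myoblasts. Its rise was 57.5-fold (log2 difference 3.06 ± 0.071, SE, adjusted p = 1.96e-18) and its 2 groups lay far apart. Its relative Klhl41 rose 34.3-fold, the myosin chaperone Unc45b 39.6-fold and Smyd1, a methyltransferase needed for thick filament assembly, 8.74-fold. The ubiquitin ligases Trim54 (MuRF3) and Trim55 (MuRF2) rose 15.5-fold and 5.18-fold, and Capn3, the muscle calpain that is bound to titin, 2.63-fold. Of a further 42 sarcomere partners tested (myosins, troponins, tropomyosins, small heat shock proteins and others), 32 were higher and 8 lower.

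**Figure D2:**
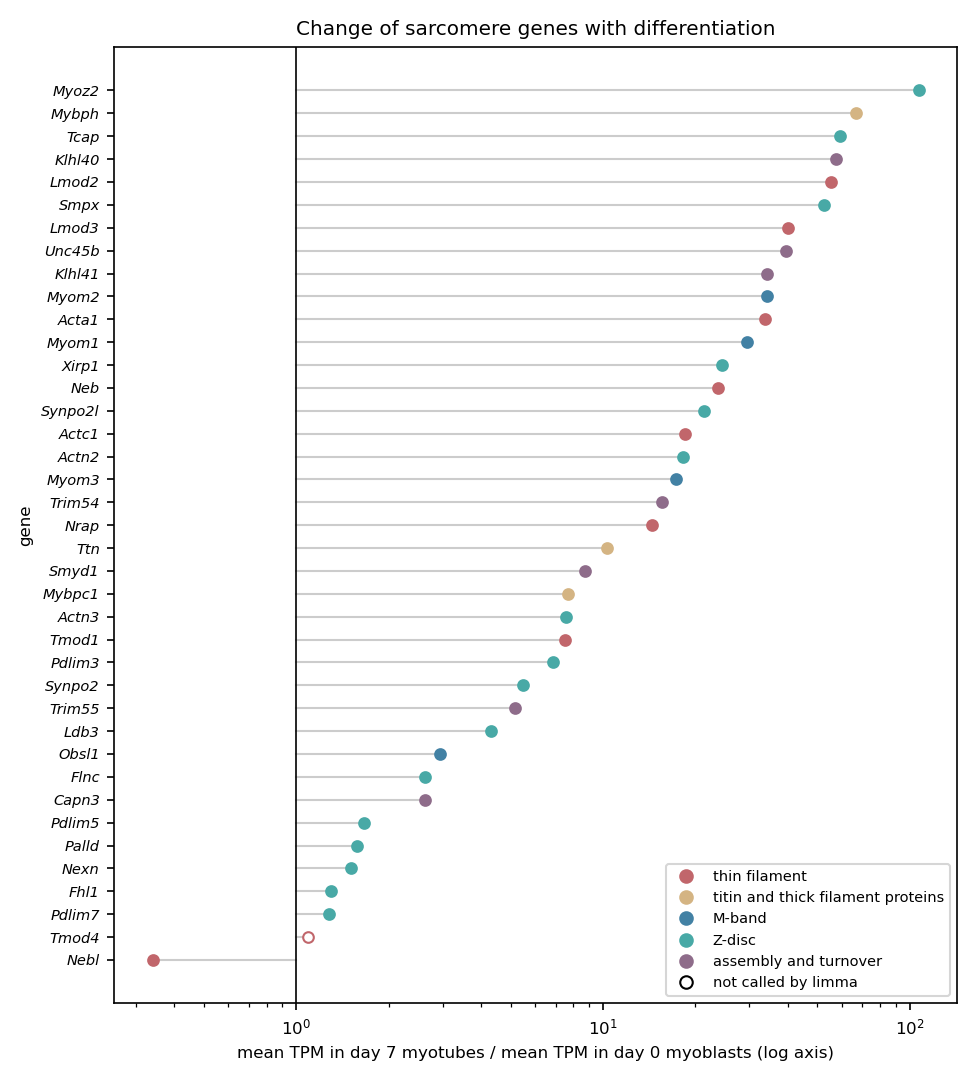
Ratio of mean TPM in day 7 myotubes to mean TPM in day 0 myoblasts for the 39 members with a fold (log axis), coloured by role; filled points were called by limma and the open point was not. Myoz2 leads at 107-fold, adaptors such as Pdlim7 lie near 1, and Nebl is the one gene to the left of 1.

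The promoters of the genes with the largest rises are shown because members moved together and the muscle factors that drive differentiation read short DNA motifs. RefSeq windows of 250 bases upstream of the start were at hand for 34 of the 45 genes (45 promoters, build GRCm38.p6). They were searched on both strands for the E-box CANNTG, for CAGCTG (an E-box itself, so the 2 overlap), for the TEAD motif CATTCC, for the glucocorticoid receptor core motif AGAACA, for the full glucocorticoid response element, and for the MEF2 site and the CArG box. In the sequences below, written 5′ to 3′ on the gene's strand, capitals mark any such match.
Myoz2: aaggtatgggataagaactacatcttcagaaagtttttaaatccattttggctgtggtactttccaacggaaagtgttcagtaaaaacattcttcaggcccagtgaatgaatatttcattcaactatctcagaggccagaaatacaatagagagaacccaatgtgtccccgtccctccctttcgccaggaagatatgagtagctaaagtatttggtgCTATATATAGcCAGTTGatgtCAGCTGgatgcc
Mybph: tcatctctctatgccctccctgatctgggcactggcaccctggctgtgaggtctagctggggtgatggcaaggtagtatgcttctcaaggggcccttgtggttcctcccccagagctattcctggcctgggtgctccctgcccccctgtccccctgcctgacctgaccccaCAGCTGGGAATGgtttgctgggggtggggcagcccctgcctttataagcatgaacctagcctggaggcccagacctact
The Myoz2 window (chr3:123034988-123035237, minus strand) holds a MEF2 site and 2 E-boxes close to the start, and the Mybph window (chr1:134193198-134193447, plus strand) holds CAGCTG joined to a CATTCC match on the opposite strand.

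Over the set, a MEF2 site was found in 20.0% of the members' promoters, beside 2.92% of all 32851 promoters of the same length, and a CArG box in 15.6%, beside 1.47%. CAGCTG was in 31.1% of the members' promoters and 13.0% of all promoters, and CATTCC in 22.2% and 12.6%. The general E-box was in 71.1% and 66.2%, and AGAACA in 17.8% and 16.1%. Some genes have several windows, and those of Ldb3 overlap and hold the same CArG box and the same AGAACA. By gene, a MEF2 site was in 8 of 34 genes, a CArG box in 6, CAGCTG in 13, CATTCC in 10 and AGAACA in 7. The full glucocorticoid response element, GNACANNNTGTNC, was in none of the 45 windows and in 0.387% of all. These are matches of letters in short windows and no measure of binding.

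Dexamethasone for 24 h raised 9 of the 44 genes and lowered none, where 13.2% of all genes tested were called higher and 12.2% lower. Tested as log2(TPM + 0.1), 10 members were called higher, beside 14% of genes higher and 7.61% lower. The largest rises were in Mybpc1 and Myot, followed by the Z-disc adaptors Nexn, Ldb3 and Fhl1 and by Nrap, Tmod1, Lmod2 and Myom2, each with a smaller fold. The median log2 difference was 0.22 over the members and −0.01 over all genes. Summed over the 45 genes the level was 12411 to 14896 TPM with dexamethasone and 8863 to 11778 TPM with vehicle. Few abundant genes weigh most in this sum. Acta1, which was not called, averaged 5454 TPM of a mean sum of 13394 TPM with dexamethasone and 4852 TPM of 10872 TPM with vehicle. Same-numbered libraries of treated and vehicle cells deviated together, and a fit that blocked on replicate number called 15 members higher, where it called 14.5% of genes higher and 13.9% lower. The 6 members that it added were Smpx, Pdlim5, Smyd1, Myoz2, Myom1 and Synpo2.

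Markers of other cells also moved at 24 h. Of 6 adipocyte markers 5 were higher and none lower, with a summed level of 178 to 261 TPM with dexamethasone, against 37.4 to 50.2 TPM with vehicle. Of 10 satellite and reserve cell markers 4 were higher and 2 lower, and they summed to 636 to 779 TPM with dexamethasone, against 343 to 374 TPM with vehicle. Of 9 fibroblast markers 2 were higher and 4 lower, with overlapping sums of 3535 to 4235 TPM with dexamethasone and 3303 to 5301 TPM with vehicle. The sums of the myotube markers (3272 to 3892 TPM with dexamethasone, 2841 to 3408 TPM with vehicle) and of the proliferation markers (99.1 to 118 TPM and 94.3 to 162 TPM) overlapped, and no gene of either list was called by limma. The part of these shifts in the results on the sarcomere genes was not tested.

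Mybpc1, the slow myosin-binding protein C, had 60.2, 11.5, 10.9 and 23.2 TPM with dexamethasone for 24 h, against 11.0, 2.62, 1.92 and 5.41 TPM with vehicle. Replicate 1 was the highest library in both groups and the lowest treated library lay just below the highest vehicle library, but within each replicate number the treated library was 4.29 to 5.68 times the vehicle library. The fold of the means was 5.05 (log2 difference 1.52 ± 0.51, SE, adjusted p = 0.0316). Myot, myotilin, which bundles actin and binds alpha-actinin, had 17.9, 4.89, 9.80 and 10.3 TPM with dexamethasone, against 6.09, 1.24, 1.27 and 2.21 TPM with vehicle. One treated library lay below the highest vehicle library, and the fold was 3.96 (log2 difference 1.42 ± 0.38, adjusted p = 0.00824). All 4 same-numbered ratios of Myot were above 1, from 2.94 to 7.71.

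Nexn, an actin-binding Z-disc protein, had 131, 113, 123 and 140 TPM with dexamethasone, against 65.5, 81.3, 57.9 and 86.5 TPM with vehicle. Nrap had 47.4, 52.7, 90.3 and 81.5 TPM with dexamethasone, against 33.4, 42.6, 35.8 and 47.2 TPM with vehicle. Neither gene overlapped between the groups, and the rises were 1.74-fold for Nexn (log2 difference 0.49 ± 0.086, SE, adjusted p = 0.000247) and 1.71-fold for Nrap (0.45 ± 0.14, adjusted p = 0.0205). Ldb3, the PDZ-LIM protein that tethers alpha-actinin, rose 1.69-fold, Fhl1 and the pointed-end cap Tmod1 each 1.60-fold, Lmod2 1.44-fold and Myom2 1.43-fold, with adjusted p from 0.00843 to 0.0405. Acta1, Actc1, Neb and Ttn were not called at 24 h, with folds of 1.12, 1.29, 1.24 and 1.55. None of the 7 assembly and turnover genes was called, with folds of 0.951 to 1.42.

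The count at 24 h depended on single libraries. It was 5 without dexamethasone replicate 4 or without vehicle replicate 3, and 14 without vehicle replicate 1. Over all genes 1489 were then called higher and 1217 lower, 1480 and 1261, and 1900 and 1745, in that order. With all libraries these counts were 2143 and 1991. Mybpc1 lost its call without dexamethasone replicate 1 or 4 or vehicle replicate 2 or 3, where its adjusted p reached 0.121. Nrap lost it without dexamethasone replicate 3 or 4 or vehicle replicate 1 or 3 (up to 0.0799), and Lmod2 without dexamethasone replicate 4 or vehicle replicate 3 (up to 0.0934). Myom2 lost it without any 1 of the 4 dexamethasone libraries or without vehicle replicate 2 or 3 (up to 0.125), and on log2(TPM + 0.1) its adjusted p was 0.0976. Myot, Nexn, Ldb3, Fhl1 and Tmod1 kept their calls in all 24 of these fits.

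**Figure D3:**
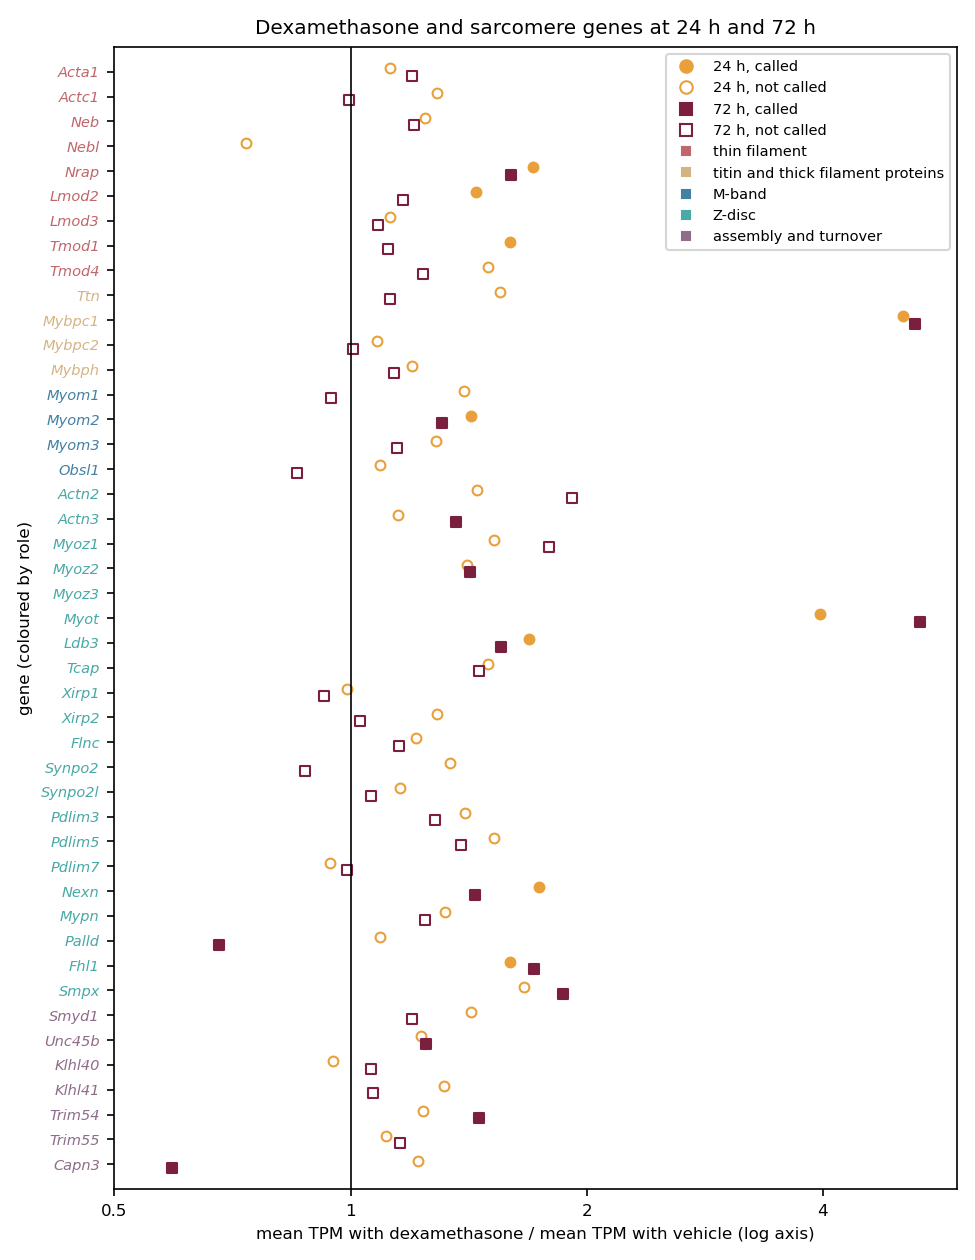
Ratio of mean TPM with dexamethasone to mean TPM with vehicle for each member at 24 h (circles) and 72 h (squares), on a log axis; filled symbols were called by limma and open ones were not. Mybpc1 and Myot stand far to the right at both times, most genes lie between 1 and 2, and Capn3 and Palld are left of 1 at 72 h, where they were called lower.

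After 72 h of dexamethasone 12 of the 44 genes were higher and 3 lower than with vehicle, where 15.2% of all genes tested were called higher and 15.2% lower. Without both replicate 1 libraries 16 were higher and 3 lower, where 15.1% of genes were called higher and 15.7% lower. All 15 calls were among them, and Actn2, Myoz1, Mypn and Pdlim3 were added. Of the 9 genes called higher at 24 h, 7 were also called at 72 h, which is 77.8% of the first list and 58.3% of the second. These were Mybpc1, Myot, Nrap, Ldb3, Fhl1, Nexn and Myom2, and the other genes called higher at 72 h were Smpx, Trim54, Myoz2, Actn3 and Unc45b. The overlap of the calls over all genes was not computed, so that of the members has no background to be set against. Lmod2 and Tmod1 were not called at 72 h, but their responses at 72 h and 24 h were not shown to differ (adjusted p = 0.506 and 0.279). The median log2 difference was 0.20 over the members and 0.01 over all genes. The summed level of the 45 genes was 13874 to 18537 TPM with dexamethasone and 10986 to 16487 TPM with vehicle, and these ranges overlapped. Without both replicate 1 libraries the sums were 17337 to 18537 TPM with dexamethasone and 10986 to 16487 TPM with vehicle, which did not overlap. Over all libraries Acta1, not called at 72 h, averaged 7583 TPM of a mean sum of 16874 TPM with dexamethasone. With vehicle it averaged 6327 TPM of 13609 TPM.

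Markers of other cell types and of cycling cells moved with the 72 h comparison. All 10 proliferation markers were higher with dexamethasone, with a summed level of 315 to 729 TPM, against 91.1 to 150 TPM with vehicle, although day 0 myoblasts held 1479 to 1620 TPM. Of 9 fibroblast markers tested, 8 were lower and none was higher, with a summed level of 439 to 2019 TPM with dexamethasone, against 3821 to 5468 TPM with vehicle. The 2019 TPM was in replicate 1, and the other dexamethasone libraries had 439, 945 and 443 TPM. Of 8 myotube markers 2 were higher and 1 lower, and of 10 satellite and reserve cell markers 3 were higher and 4 lower. The myotube markers summed to 3691 to 4308 TPM with dexamethasone, against 3151 to 3645 TPM with vehicle. The satellite and reserve cell markers summed to 497 to 750 TPM with dexamethasone, against 317 to 458 TPM with vehicle. Neither sum overlapped between the groups. Of 6 adipocyte markers 4 were higher, and their summed level was 155 to 218 TPM with dexamethasone, against 43.8 to 83.7 TPM with vehicle. The part of these shifts in the results on the sarcomere genes was not tested.

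Myot had 57.0, 26.8, 43.3 and 33.5 TPM with dexamethasone for 72 h, against 17.2, 2.45, 6.84 and 3.69 TPM with vehicle. Mybpc1 had 160, 35.2, 52.5 and 51.6 TPM with dexamethasone, against 42.4, 3.92, 4.79 and 6.07 TPM with vehicle. Myot did not overlap, whereas the Mybpc1 groups did, through vehicle replicate 1 alone. The folds were 5.31 for Myot (log2 difference 2.08 ± 0.38, SE, adjusted p = 0.000226) and 5.24 for Mybpc1 (2.15 ± 0.51, adjusted p = 0.00253), and without both replicate 1 libraries they were 7.97 and 9.43. Mybpc2 averaged 6.86 ± 5.06 TPM with dexamethasone and 6.81 ± 5.67 TPM with vehicle (SD, n = 4 each) and was not called (adjusted p = 0.911).

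The balance of the 2 myosin-binding proteins C therefore differed between treated and vehicle libraries at both times. Mybpc2 made up 13.9%, 17.5%, 12.9% and 14.9% of the pair's summed TPM with dexamethasone for 24 h, against 44.9%, 47.8%, 45.1% and 40.1% with vehicle. At 72 h its share was 8.14%, 9.05%, 10.6% and 6.40% with dexamethasone, against 26.1%, 37.9%, 56.3% and 37.8% with vehicle. Without both replicate 1 libraries the means at 72 h were 8.68% with dexamethasone and 44.0% with vehicle. The groups were apart at both times, and replicate 1, the library with the highest level of both genes, was not the extreme one in the treated groups. The balance of the leiomodins also differed at 24 h, where Lmod2 held 57.2% ± 2.23 of the pair with dexamethasone and 50.5% ± 3.11 with vehicle (SD, n = 4 each) without overlap. At 72 h its shares overlapped, at 60.6% ± 3.48 with dexamethasone and 58.6% ± 1.99 with vehicle, and at 59.4% with dexamethasone and 58.4% with vehicle without both replicate 1 libraries. The share of Acta1 in the actin pair overlapped between dexamethasone and vehicle at both times, with means of 85.2% and 86.8% at 24 h and of 93.2% and 91.7% at 72 h. Its 72 h means were 93.1% with dexamethasone and 91.2% with vehicle without both replicate 1 libraries.

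**Figure D4:**
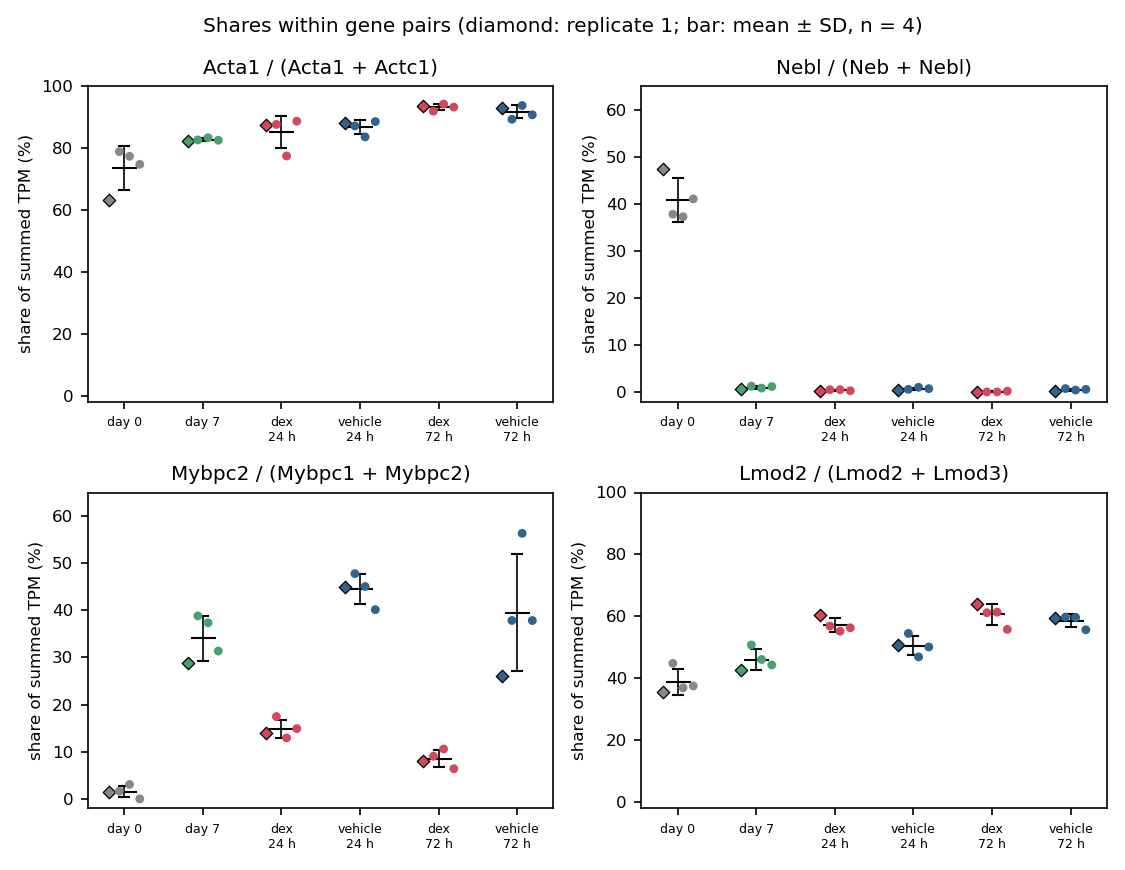
Share of one gene in the summed TPM of a pair, in percent, for each library of the 6 groups; diamonds mark replicate 1 and bars give the mean ± SD (n = 4). Mybpc2 holds 6.40% to 17.5% in all 8 dexamethasone libraries, against 26.1% to 56.3% in the 8 vehicle libraries, while Nebl leaves the nebulin pair at differentiation.

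Smpx had 1093, 980, 1099 and 1180 TPM with dexamethasone for 72 h, against 869, 348, 712 and 407 TPM with vehicle. Fhl1 had 1051, 959, 1014 and 985 TPM with dexamethasone, against 736, 482, 617 and 507 TPM with vehicle. The treated libraries of both genes were tightly grouped and lay above every vehicle library, among which replicate 1 was highest. The rises were 1.86-fold for Smpx (log2 difference 0.75 ± 0.20, SE, adjusted p = 0.0069) and 1.71-fold for Fhl1 (0.58 ± 0.11, adjusted p = 0.000324), and 2.22-fold and 1.84-fold without both replicate 1 libraries. Among the other called genes Nrap rose 1.60-fold, Ldb3 1.56-fold, Trim54 1.46-fold, Nexn 1.44-fold, Myoz2 1.42-fold, Actn3 1.36-fold, Myom2 1.31-fold and Unc45b 1.25-fold. Without both replicate 1 libraries these 8 folds lay between 1.32 (Unc45b) and 1.71 (Nrap). Actn2 averaged 35.3 ± 15.4 TPM with dexamethasone and 18.4 ± 9.65 TPM with vehicle (SD, n = 4 each) and was not called (adjusted p = 0.0591). It was called with the replicate block (adjusted p = 2.57e-05) and without both replicate 1 libraries (0.0414). The block also added Myoz1, Tcap, Pdlim5, Smyd1 and Mypn, for 18 genes higher and 3 lower, where it called 16.7% of genes higher and 16.8% lower.

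Capn3 turned the other way at 72 h. It had 10.7, 4.63, 8.80 and 6.77 TPM with dexamethasone, against 15.1, 10.9, 13.5 and 12.7 TPM with vehicle, where every treated library lay below every vehicle library. The fold was 0.593 (log2 difference −0.53 ± 0.14, SE, adjusted p = 0.0063), and 0.545 without both replicate 1 libraries (adjusted p = 0.00257). At 24 h Capn3 averaged 15.0 ± 3.10 TPM with dexamethasone and 12.3 ± 0.82 TPM with vehicle (SD, n = 4 each) and was not called (adjusted p = 0.593). Its response differed between the times by −0.65 ± 0.20 on the log2 scale (72 h minus 24 h, adjusted p = 0.0391), the single member called in that comparison over all libraries, where 5.56% of genes were called higher and 5.77% lower. On log2(TPM + 0.1) it was again the single member called, beside 3.93% of genes higher and 6.93% lower. That call was lost in 11 of the 24 fits without 1 library, each leaving out a dexamethasone or vehicle library, with adjusted p up to 0.0963. The 11 were dexamethasone replicates 1, 2 and 4 and vehicle replicates 2, 3 and 4 at 24 h, and dexamethasone replicates 2 and 4 and vehicle replicates 1, 3 and 4 at 72 h.

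Palld, which organises actin bundles around the Z-disc, had 61.0, 81.5, 75.4 and 75.0 TPM with dexamethasone for 72 h, against 86.8, 134, 91.0 and 119 TPM with vehicle. The groups did not overlap, and the fold was 0.680 (log2 difference −0.36 ± 0.087, SE, adjusted p = 0.00346) and 0.674 without both replicate 1 libraries. The difference of its response between the times was −0.38 (72 h minus 24 h, log2), which was not called in the fit of all libraries (adjusted p = 0.0508). It was called without both replicate 1 libraries (0.0445) and with the replicate block (0.0453). Nebl had 0.292, 0.232, 0.204 and 0.495 TPM with dexamethasone, against 0.568, 1.06, 0.958 and 0.940 TPM with vehicle, again without overlap (log2 difference −0.95 ± 0.20, adjusted p = 0.000976, and −1.08 without both replicate 1 libraries). Nebl was thus called lower at differentiation and with dexamethasone at 72 h, at levels at or below about 1 TPM in myotubes.

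Several calls at 72 h also rested on few libraries. Trim54 lost its call without dexamethasone replicate 2, 3 or 4 or vehicle replicate 1 or 2 (adjusted p up to 0.0952). Unc45b lost it without dexamethasone replicate 2, 3 or 4 or vehicle replicate 2 or 4 (up to 0.16), and Myom2 without dexamethasone replicate 2, 3 or 4 or vehicle replicate 1, 2 or 4 (up to 0.116). Actn3 and Myoz2 each lost it without vehicle replicate 2 (0.0665 and 0.0543). On log2(TPM + 0.1) the adjusted p was 0.0737 for Trim54, 0.0935 for Actn3, 0.144 for Unc45b and 0.183 for Myom2. The other 10 genes called at 72 h kept their calls in all 24 fits.

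**Figure D5:**
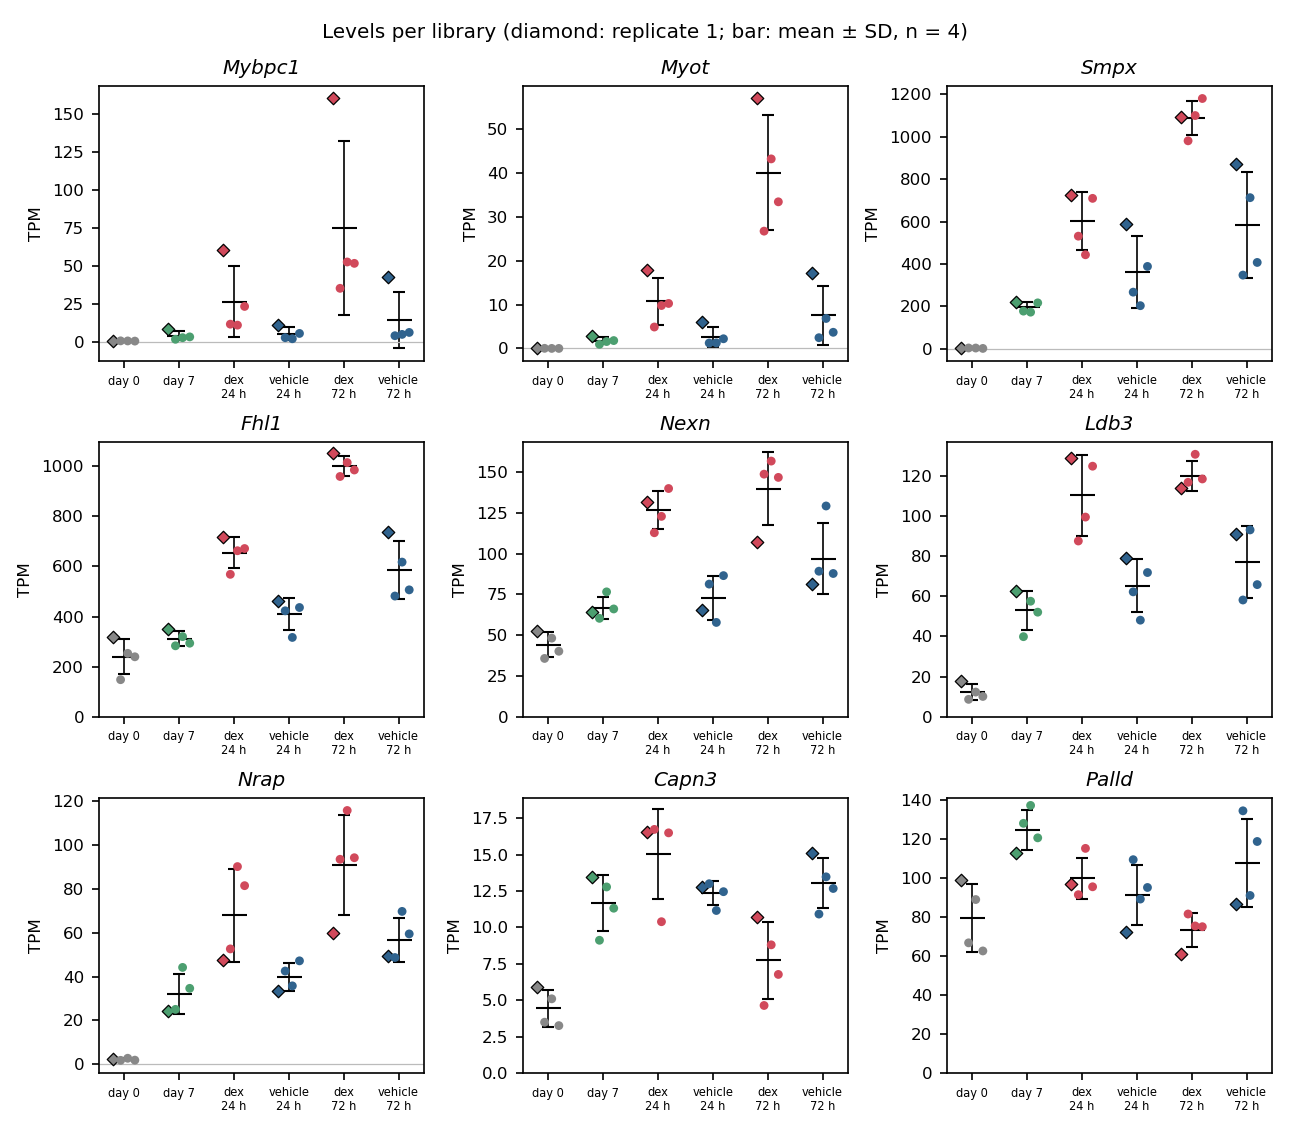
Level in TPM per library of 9 members that were called with dexamethasone; diamonds mark replicate 1 and bars give the mean ± SD (n = 4). Smpx and Fhl1 are above every vehicle library at 72 h, replicate 1 is the highest library of Mybpc1 and Myot in each myotube group, and Capn3 and Palld are lowest among myotubes with dexamethasone at 72 h.

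Upstream windows are shown for 2 genes that rose and 2 that fell at 72 h, those with the largest folds for which a window could be shown. Nebl, with 4 annotated windows, is left out because its means were too low for a fold. Capitals mark matches of the motifs named above.
Mybpc1: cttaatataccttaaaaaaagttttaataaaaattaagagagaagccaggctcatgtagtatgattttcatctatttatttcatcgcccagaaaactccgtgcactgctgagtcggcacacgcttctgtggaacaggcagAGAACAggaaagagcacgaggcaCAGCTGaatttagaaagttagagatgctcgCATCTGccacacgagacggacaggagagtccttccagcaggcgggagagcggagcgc
Smpx: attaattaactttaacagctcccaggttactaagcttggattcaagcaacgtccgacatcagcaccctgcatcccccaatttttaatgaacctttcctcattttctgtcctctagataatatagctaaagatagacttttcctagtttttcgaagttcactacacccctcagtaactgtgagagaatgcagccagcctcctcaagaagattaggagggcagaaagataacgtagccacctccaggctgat
Capn3: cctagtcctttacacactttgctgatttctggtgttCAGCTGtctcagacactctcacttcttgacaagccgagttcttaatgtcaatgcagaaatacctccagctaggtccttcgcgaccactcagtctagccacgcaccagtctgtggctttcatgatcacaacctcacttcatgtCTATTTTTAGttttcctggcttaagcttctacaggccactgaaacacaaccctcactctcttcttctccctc
Palld: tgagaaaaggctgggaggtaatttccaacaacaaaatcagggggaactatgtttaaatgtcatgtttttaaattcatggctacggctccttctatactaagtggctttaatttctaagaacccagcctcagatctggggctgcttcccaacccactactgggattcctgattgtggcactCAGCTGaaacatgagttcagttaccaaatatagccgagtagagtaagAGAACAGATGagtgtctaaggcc
Mybpc1 (chr10:88605153-88605402, minus strand) and Palld (chr8:61902708-61902957, minus strand, one of 3 annotated windows) each hold 1 AGAACA beside 2 E-boxes, so this match is present in a gene that rose and in one that fell. Smpx (chrX:157698723-157698972, plus strand) holds none of the motifs, and Capn3 (chr2:120463343-120463592, plus strand, one of 2 windows) holds CAGCTG and a MEF2 site.

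Part of the set also rose in vehicle after day 7. The vehicle libraries at 72 h serve as controls for the dexamethasone comparison above, so the values are given side by side with it and not as independent of it. Between vehicle at 72 h and day 7, 21 of the 44 genes were higher and none was lower, where 8.77% of all genes tested were called higher and 10.3% lower. On log2(TPM + 0.1) 20 were higher and none was lower, beside 10.2% of genes higher and 6.47% lower, and the median of all genes was shifted by 0.11. Without both replicate 1 libraries of 72 h 19 members were higher, where 8.55% of genes were called higher and 9.74% lower. Of the 21 calls 16 remained, those of Ttn, Myoz2, Myot, Tcap and Unc45b were lost, and Xirp1, Flnc and Trim54 were added. The count was 11 without day 7 replicate 2 or without vehicle 72 h replicate 3. In the first of these fits 798 of all genes were higher and 907 lower, against 1426 and 1678 with all libraries. The summed level was 10986 to 16487 TPM with vehicle at 72 h, against 7274 to 8812 TPM at day 7.

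Smpx had 869, 348, 712 and 407 TPM with vehicle at 72 h, against 219, 178, 173 and 217 TPM at day 7, a 2.97-fold rise without overlap (limma adjusted p = 0.00414), and 2.49-fold without both replicate 1 libraries of 72 h. Xirp2, a Xin repeat protein, had 35.2, 31.2, 35.6 and 32.4 TPM with vehicle at 72 h, against 7.08, 9.17, 18.6 and 13.9 TPM at day 7. This was a 2.76-fold rise (log2 difference 1.02 ± 0.20, SE, adjusted p = 0.0025) to a narrow range. Myot and Tcap had the folds of 4.19 and 2.74, but their groups overlapped. Myot had 17.2, 2.45, 6.84 and 3.69 TPM with vehicle at 72 h, against 2.87, 0.948, 1.58 and 1.80 TPM at day 7. Tcap had 169, 41.7, 111 and 72.5 TPM with vehicle at 72 h, against 52.1, 23.8, 33.5 and 34.3 TPM at day 7. For both genes replicate 1 was the highest library in each group. Both lost their calls without both replicate 1 libraries of 72 h (adjusted p = 0.137 for Myot and 0.0986 for Tcap), and each without day 7 replicate 2, 3 or 4 or vehicle 72 h replicate 1 or 3 (up to 0.153 and 0.106).

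Of the thin filament genes Lmod2 rose 2.51-fold, Neb 2.48-fold, Tmod1 2.21-fold and Acta1 2.13-fold over these 3 days. Actc1 averaged 555 ± 74.0 TPM with vehicle at 72 h and 625 ± 42.5 TPM at day 7 (SD, n = 4 each) and was not called. The share of Acta1 in the actin pair was 91.7% ± 2.05 with vehicle at 72 h and 82.6% ± 0.51 at day 7, without overlap. Pdlim3, the actinin-associated LIM protein, rose 2.29-fold, Klhl41 2.03-fold and Mypn, myopalladin, 2.00-fold. These 7 folds were 1.84 to 2.56 without both replicate 1 libraries of 72 h, and Xirp2 rose 2.71-fold. Acta1, Neb, Lmod2, Tmod1, Xirp2, Pdlim3, Synpo2, Fhl1, Smpx, Klhl41 and Mypn kept their calls in all 24 fits without 1 library.

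The steps between were small against the spread. Lmod2 was the single member called between vehicle at 24 h and day 7, with 96.2, 119, 75.2 and 114 TPM at 24 h, against 50.3, 67.3, 76.8 and 62.6 TPM at day 7. Its groups overlapped (log2 difference 0.47 ± 0.096, SE, adjusted p = 0.0472), and 0.0984% of genes were called higher and 0.111% lower. Its call was lost in 14 of the 24 fits without 1 library (adjusted p up to 0.19) and on log2(TPM + 0.1) (0.088). Between vehicle at 72 h and at 24 h Lmod2 and Mypn were higher, where 2.67% of genes were called higher and 1.69% lower (1.44% and 0.334% on log2(TPM + 0.1), where the median of all genes was shifted by 0.13). Mypn had 6.62, 6.15, 9.15 and 5.83 TPM with vehicle at 72 h, against 4.07, 4.43, 3.78 and 4.23 TPM with vehicle at 24 h. Lmod2 had 151, 147, 193 and 154 TPM at 72 h, against 96.2, 119, 75.2 and 114 TPM at 24 h. Neither gene overlapped in this step, and both calls were lost without vehicle 24 h replicate 1 or 3 or vehicle 72 h replicate 1, 2 or 3 (adjusted p up to 0.168 for Lmod2 and 0.14 for Mypn).

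Across the 6 groups, 33 of the 45 genes had their highest mean in dexamethasone at 72 h, 5 in vehicle at 72 h and 5 in dexamethasone at 24 h, while 43 had their lowest mean in day 0 myoblasts. The same shares over all genes were not computed, so these counts only describe the members. Palld was highest in day 7 myotubes and Nebl in day 0 myoblasts. Some members followed the replicate number. Actn2, Myot, Tcap, Mybpc1, Mybpc2, Pdlim5, Smyd1 and Fhl1 had their highest level in replicate 1 in all 5 myotube groups, and no member was highest throughout in replicate 2, 3 or 4. Among 13093 genes with a mean of at least 1 TPM, 2.14% were highest in replicate 1 in all 5 groups. For replicates 2, 3 and 4 the shares were 0.16%, 0.137% and 0.084%, so the lack of members there is near the share of all genes. For Mybpc1 the replicate 1 level was 3.31 to 8.61 times the mean of the other 3 libraries of its group, and for Actn2 2.09 to 2.48 times. For Fhl1 and Smyd1 the factor stayed below 1.38. Other members were low in replicate 1 of the myotube groups, with factors of 0.515 to 0.762 for Trim54 and 0.588 to 0.741 for Xirp1.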

How the data were processed

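Polyadenylated RNA of 24 C2C12 libraries was analysed from 2 tables. The authors deposited TPM values, and a second table of log2 values that they normalised between libraries. The method of that normalisation is not given in the sources used here, and the tests had been planned without knowing its scale. The submitters' processing notes name the build GRCm39 and, without saying what each did, DESeq, Salmon and kallisto 0.51.1. The tables were joined by Ensembl identifier. Log2 values were tested as deposited with limma 3.58.1 in R 4.3.3 (empirical Bayes with trend, 1 mean per group, all libraries), for genes with 2 to the power of the value at least 10 in at least 4 libraries, with Benjamini-Hochberg adjustment over all genes tested. Depth is unknown, so the counting noise cannot be stated, and the errors given rest on the spread between libraries. The tests were checked on simulated data.

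The members and lists were chosen with earlier results of these data known. Values in every library are given for the called members with the 4 largest rises and falls per comparison and for the actins, titin, nebulin, the alpha-actinins and the calsarcins in differentiation. Nebl, below the minimum for a fold at 72 h, and further values of Actn2, Capn3 and Palld were added after their values were seen. Same-numbered libraries correlated, after removal of group means, by 0.145 to 0.212 for differentiation. For dexamethasone they correlated by 0.201 to 0.391 at 24 h and by 0.117 to 0.338 at 72 h. The numbers were therefore read as pairs in the same-numbered ratios and in the replicate block. The fit behind the calls, and the fits without 1 library, had no block and did not use the pairing. Alternatives were log2(TPM + 0.1) and log2(TPM + 1), quantile normalisation, no filter, a stricter filter of 50, fits on the groups compared alone, a replicate block, and leaving out each library in turn or both replicate 1 libraries of 72 h. Upstream sequences are from RefSeq. Protein sequences were not used here.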

Additional observations from a re-analysis of the deposited data

Results flagged for a closer look

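The sets examined were the 4 libraries of each member in each group where the highest library reached 0.5 TPM. Of these 259 sets, 23 held a library whose gap to its neighbour was past Dixon's critical share of the whole range for 4 values. That is 8.88% of the sets, where chance gives about 5% for independent normal values, and these sets share libraries. Replicate 1 made up 12 of the 23. Among these the high libraries were Actn2 with 58.1 TPM in dexamethasone 72 h replicate 1 (25.7 to 30.5 TPM in the others) and 32.9 TPM in vehicle 72 h replicate 1, and Mybpc1 with 160 and 42.4 TPM in the same libraries. Myoz1 stood at 6.53 TPM in vehicle 72 h replicate 1 and Tcap at 0.898 TPM in day 0 replicate 1. Dexamethasone 72 h replicate 1 was lowest of its group for Actn3 (406 TPM), Myom2 (248 TPM), Lmod3 (76.9 TPM), Synpo2l (153 TPM) and Trim54 (70.3 TPM), and day 7 replicate 1 for Tmod4 (0.505 TPM). The part of this library's shared genes in those levels was not tested.

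In replicate 3, vehicle at 72 h was highest for Obsl1 (145 TPM), Lmod2 (193 TPM) and Nexn (129 TPM), dexamethasone at 24 h was highest for Actc1 (1332 TPM, against 759 to 822 TPM in the others) and lowest for Capn3 (10.4 TPM), day 7 was highest for Mybph (1127 TPM), and vehicle at 24 h was lowest for Xirp2 (12.8 TPM). Neb stood low at 93.8 TPM in dexamethasone 24 h replicate 2, Pdlim3 at 22.8 TPM in day 0 replicate 2, Smpx at 2.23 TPM in day 0 replicate 4 and Tmod4 at 0.543 TPM in vehicle 72 h replicate 4.

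The dexamethasone response of Capn3 differed between the times, by −0.65 on the log2 scale for 72 h minus 24 h (adjusted p = 0.0391 by limma). The fold was 1.22 at 24 h, with 3 of 4 same-numbered pairs above 1, and 0.593 at 72 h, with 0 of 4 pairs above 1. This call was lost in 11 of the 24 fits without 1 library (adjusted p up to 0.0963), without the filter (0.0789) and with only the groups compared (0.0713).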

How the results depend on the processing

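No called difference of a member changed direction in any alternative. The median over all genes, near 0, was 0.08 for dexamethasone at 24 h and −0.01 at 72 h on log2(TPM + 0.1), against −0.01 and 0.01, and quantile normalisation gave 2038 genes higher and 2224 lower at 24 h. The 92 called differences of members all remained called with the replicate block and with the stricter filter; 90 did so under quantile normalisation, 85 on log2(TPM + 0.1), 87 without both replicate 1 libraries of 72 h, 78 with only the groups compared and 76 without the filter. The cause of these losses was not tested. The replicate block gave 15 members at 24 h of dexamethasone and 3 for the difference between times (1066 genes higher and 1167 lower). It gave 2 for vehicle 24 h versus day 7 and 6 for vehicle 72 h versus 24 h (109 and 1067 of all genes). For vehicle 72 h versus day 7 it gave 29 members, with 1702 genes higher and 1928 lower. The numbers did not pair the vehicle comparisons throughout. Correlations there were 0.431 to 0.565 for replicate 1, but some of the other replicates fell to −0.249. The block changed no call there to not called. The difference between times had 2 members under quantile normalisation (992 genes higher and 966 lower), with the stricter filter (919 and 965) and without both replicate 1 libraries (1050 and 1416). It had 0 members without the filter (743 and 694 of 30355 genes) or with only the groups compared (719 and 653). The fit of all libraries had 904 genes higher and 938 lower. Vehicle 24 h versus day 7 had 0 members on either TPM scale, without the filter and with only the groups compared, and 4, 5, 4 and 0 genes; without both replicate 1 libraries it had 11 genes. Vehicle 72 h versus 24 h had 0 members without the filter (94 genes) and with only the groups compared (4 genes), 270 and 264 genes on the TPM scales with pseudocounts of 0.1 and 1, and 380 genes without both replicate 1 libraries. Vehicle 72 h versus day 7 had 13 members without the filter, where 1047 of 30355 genes were higher and 1305 lower.

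Leaving out 1 library gave 42 to 43 members for differentiation (9023 to 9966 genes), 5 to 14 for dexamethasone at 24 h (2706 to 4398 genes), 10 to 18 at 72 h (3892 to 5472 genes), 0 to 2 for the difference between times (1241 to 2686 genes), 0 to 6 for vehicle 24 h versus day 7 (0 to 328 genes), 0 to 2 for vehicle 72 h versus 24 h (2 to 1751 genes) and 11 to 27 for vehicle 72 h versus day 7 (1207 to 3401 genes). Shares within gene families moved by less than their SD without any 1 library. In so small a group leaving out 1 library cannot move the mean by its SD, so this is no check of the shares. Computed from the log2 table, which is not per length, 26 of 54 shares moved. With no depth in the tables, levels below about 1 TPM carry no stated precision.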
